A study of Mus musculus with 4 samples.

Results

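The Mef2 family of transcription factors was followed through the 4 RNA-seq libraries of the series. Its members, Mef2a, Mef2b, Mef2c and Mef2d, were taken as the entries whose symbol equals one of these 4 names, and each was found as a single entry among 24320 gene symbols in the total RNA tables and 24438 in the polyA tables. All cultures were C2C12, a mouse myoblast line that exits the cell cycle and fuses into myotubes after the shift from growth medium with FBS to differentiation medium (DM) with horse serum. Total RNA depleted of rRNA was sequenced from myoblasts collected 24 h before the shift (MB, DM -24 h) and from myotubes collected at DM 72 h (MT). PolyA RNA was sequenced at DM 48 h from cells transfected with siRNA against hnRNPL (si-hnRNPL) or with a scrambled control (si-NC), with no genetic change in any group. The cell type field names all 4 cultures myoblasts, so MB and MT follow the sample titles. Each group has 1 library, so the differences below have no check by replicates and are given without p-values. In bulk RNA, fewer cells of a type and less RNA per cell cannot be told apart.

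MEF2 proteins bind A/T-rich sites through a MADS box and the adjoining MEF2 domain. They have no muscle-inducing activity of their own and act together with MyoD and myogenin, bHLH factors that bind E-boxes, at the promoters and enhancers of muscle genes. Class IIa histone deacetylases hold them silent, whereas calcium-dependent kinases, p38 MAP kinase and the phosphatase calcineurin release or activate them. Mef2c is best known for heart and skeletal muscle development, Mef2a and Mef2d act in many tissues, and Mef2b is known mainly from germinal center B cells.

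The sequence around the start of each gene is shown for the members that rose in MT, because Mef2 genes are themselves described as targets of MEF2 and myogenic bHLH proteins. RefSeq promoter windows matched all 4 symbols, with 3 start sites for Mef2c, and each window was found at 1 place in mm9. The lines give 250 bases before the start and the first 30 bases after it, 5′ to 3′ on the strand of the gene. Capitals mark the MEF2 site in Mef2a and the E-boxes (CANNTG) in Mef2c.
Mef2a, chr7:74517715-74517994, minus strand: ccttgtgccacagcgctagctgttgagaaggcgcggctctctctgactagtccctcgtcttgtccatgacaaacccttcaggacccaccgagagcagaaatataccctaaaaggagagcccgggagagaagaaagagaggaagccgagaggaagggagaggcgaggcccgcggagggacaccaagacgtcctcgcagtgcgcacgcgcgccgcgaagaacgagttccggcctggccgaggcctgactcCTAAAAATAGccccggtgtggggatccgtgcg
Mef2c, chr13:83642783-83643062, plus strand, start site at the 5′ end of the locus: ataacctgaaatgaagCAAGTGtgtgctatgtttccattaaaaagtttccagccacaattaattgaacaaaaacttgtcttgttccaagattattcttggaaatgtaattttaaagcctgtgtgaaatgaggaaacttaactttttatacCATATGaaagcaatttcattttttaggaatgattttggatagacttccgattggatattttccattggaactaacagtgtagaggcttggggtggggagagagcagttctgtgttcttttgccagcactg

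The Mef2a window held a MEF2 site, CTAAAAATAG, from base -2 to base 8 relative to the start, and no E-box. Of all 32851 RefSeq windows of this length, 0.536% held a MEF2 site on either strand and 70.1% held an E-box. The first Mef2c start site had E-boxes at bases -234 to -229 (CAAGTG) and -100 to -95 (CATATG). The window of the start site at base 83712765 had 1 E-box (CAGATG, bases -245 to -240), and that of the start site at base 83662655 had none. Neither the MEF2 site nor the CArG box, the site of the related MADS-box factor Srf, was found in a window of Mef2b, Mef2c or Mef2d. The Mef2d window held no E-box, and the Mef2b window held 1 at bases -28 to -23. These matches describe letters within a short window and are not evidence of binding.

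Abundance is given as FPKM, a fragment number divided by transcript length and sequencing depth, so members can be compared within a library. The 95% interval that Cufflinks attached to each FPKM is given in parentheses and reflects how well fragments were counted and assigned, not how cultures vary. Its width corresponds to an implied number of fragments. Over all entries these came to 59960176 in MB, 54442423 in MT, 21341051 with si-NC and 14592480 with si-hnRNPL.

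Before differentiation, Mef2a and Mef2d made up nearly all of the Mef2 RNA. Mef2a (chromosome 7, 74376049 to 74517744 in mm9, minus strand) stood at 12.8 FPKM (12.5 to 13.2) in MB and at 41.7 (40.9 to 42.4) in MT. Mef2d (chromosome 3, 87946317 to 87973089, plus strand) stood at 10.5 FPKM (10.0 to 10.9) in MB and at 13.5 (12.98 to 14.02) in MT. These members were close in MB, while in MT the level of Mef2a was 3.09 times (2.96 to 3.22) that of Mef2d. The corresponding ratio in MB was 1.22 (1.16 to 1.29). In the ranking of all named genes above 0, Mef2a moved from percentile 66.0 in MB to percentile 91.3 in MT, and Mef2d from 62.2 to 72.2.

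Mef2c (chromosome 13, 83643033 to 83806684, plus strand) was close to undetected in MB, at 0.0732 FPKM (0.0491 to 0.0972) on 37.0 implied fragments. In MT it reached 4.004 FPKM (3.77 to 4.24) on 1136 implied fragments. The intervals of MB and MT lay far apart, although Mef2c remained the lowest of the 3 members expressed in MT, at percentile 48.9 of named genes. Mef2b (chromosome 8, 72676660 to 72691387, plus strand) had 0.0103 FPKM (0 to 0.0393) in MB and 0.0394 (0 to 0.0832) in MT, on at most 3.21 implied fragments. In si-NC it was listed at 0, and in si-hnRNPL at 0.0810 FPKM (0 to 0.221). The interval of Mef2b reached 0 in all 4 libraries, so no fold change is given for it. Its locus also overlaps the GENCODE gene 2310045N01Rik on the same strand, which makes the assignment of its few fragments uncertain.

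**Figure D1:**
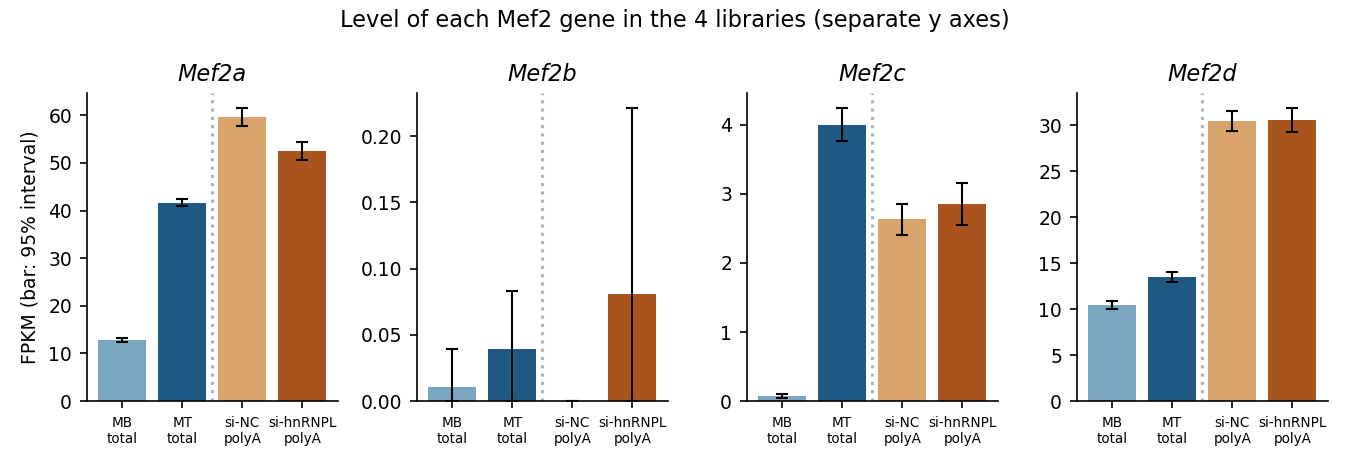
FPKM of each Mef2 gene (y axis, linear, separate for each gene) in the MB and MT total RNA libraries and the si-NC and si-hnRNPL polyA libraries; each bar is 1 library and the error bar is its 95% Cufflinks interval. Mef2a and Mef2c stand higher in MT than in MB with intervals far apart, Mef2d stands at 10.5 and 13.5, and the Mef2b intervals reach 0 in every library.

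To ask which members changed on differentiation, the change was taken on the log2 scale after adding 1 to each FPKM, and a gene was called at an absolute value of 0.58 or more, about the 1.5-fold change that the study uses. The added 1 understates the change of genes with a low FPKM. By this rule Mef2a and Mef2c rose, which is 2 of the 4 members, and 0 fell. Of 18325 named genes above 0 in MB or MT, 10.6% were called higher and 18.5% lower. Among the 11748 genes that reached an FPKM of 1 in either library, which leaves out Mef2b, the shares were 15.4% higher and 28.6% lower. Among the 10735 that reached it in both, which leaves out Mef2c as well, they were 12% higher and 28.9% lower.

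The log2 change of Mef2a was 1.63 (1.58 to 1.67), a 3.25-fold higher FPKM (3.15 to 3.36). Of the 10735 genes, 1.92% had a larger change. That of Mef2c was 2.22 (2.15 to 2.30), and its FPKM was 54.7 times (39.2 to 76.4) that in MB. Mef2d had a log2 change of 0.34 (0.26 to 0.42), a ratio of 1.29 (1.22 to 1.37), and was not called. Its interval excluded 0, but it covers counting error alone. The median log2 change of the 10735 genes was -0.23. Relative to this median, Mef2a stood at 1.85, Mef2c at 2.45 and Mef2d at 0.56, just under the threshold. When the libraries were scaled to the same upper quartile instead, Mef2d passed it at 0.65, so whether Mef2d counts as changed depends on the scaling.

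These changes altered the make-up of the family. The FPKM of the 4 members summed to 23.4 in MB and 59.2 in MT. Of this sum, Mef2a held 54.8% (53.6 to 56.1) in MB and 70.4% (69.6 to 71.2) in MT. The share of Mef2d was 44.8% (43.5 to 46.1) in MB and 22.8% (22.1 to 23.6) in MT, so Mef2d took a smaller part of a larger sum. Mef2c went from 0.313% (0.210 to 0.416) to 6.76% (6.37 to 7.15), while Mef2b stayed at or below 0.0665%. The order Mef2a, Mef2d, Mef2c, Mef2b was the same in all 4 libraries, and the FPKM intervals of neighbors in this order did not overlap in any library. The closest were Mef2c and Mef2b in MB, both under 0.1 FPKM.

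**Figure D2:**
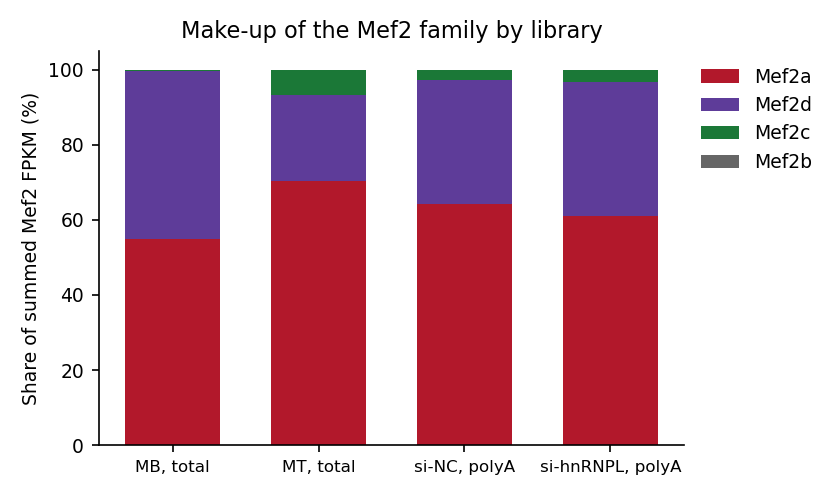
Share of the summed FPKM of the Mef2 family (y axis, percent) held by each member in each library (x axis). The Mef2a part is 54.8% in MB and 70.4% in MT, the Mef2d part 44.8% and 22.8%, and Mef2c is visible in the MT, si-NC and si-hnRNPL bars; Mef2b is too small to see.

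The total RNA tables also list transcript units that the authors assembled from the reads, and some lie within Mef2 genes. There were 13 such units in Mef2a, 9 in Mef2d and 0 in Mef2b and Mef2c, and none overlapped an annotated exon of its gene in GENCODE. The tables give no strand for a unit. All 13 units in Mef2a were called higher in MT, and the MT interval lay above the MB interval for each. Their FPKM ranged from 0.693 to 2.07 in MB (median 1.11) and from 4.84 to 9.75 in MT (median 6.85). Every unit in Mef2a was thus between 4.70 and 8.81 times higher in MT, with a median ratio of 6.20, against 3.25 for the gene itself. All of them lay between 78.0 and 123 kb from the start of a gene that spans 141696 bp, and none was listed closer to the start. Several lay side by side and all come from the same libraries, so the 13 units are not independent observations. Relative to the FPKM of Mef2a, the median unit stood at 8.63% in MB and 16.4% in MT.

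Units in Mef2d showed no such common rise. Their FPKM ranged from 1.37 to 2.65 in MB and from 1.54 to 3.26 in MT, and 2 of the 9 were called higher and 0 lower. The MT interval lay above the MB interval for 3 of them, and the median ratio was 1.26, close to the 1.29 of the gene. The median unit stood at 18.8% of the FPKM of Mef2d in MB and at 18.3% in MT. Of all 36780 assembled units, 19.8% were called higher in MT and 3.09% lower, with a median log2 change of 0.24. Their median FPKM was 0.239 in MB and 0.472 in MT, below the median of the units in Mef2a and in Mef2d. At such levels the added 1 understates changes, so these shares are not a like-for-like background for the units in Mef2 genes. Whether the units at the Mef2 loci are unspliced RNA of the host gene or separate transcripts was not tested. With a pseudocount of 0.1, 4 units in Mef2d were called higher and 2 lower.

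**Figure D3:**
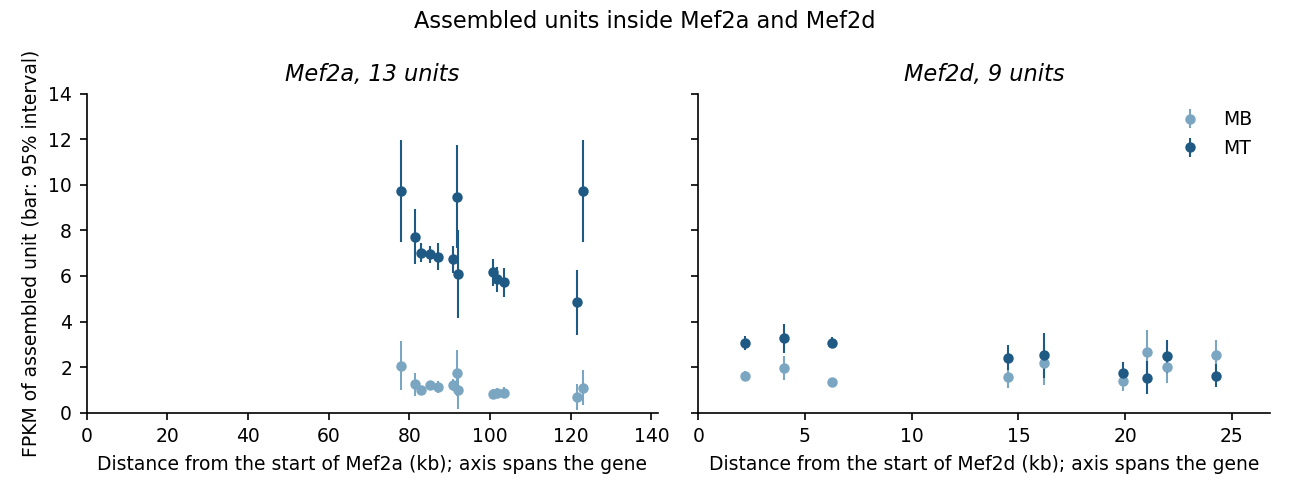
FPKM (y axis) of the assembled transcript units inside Mef2a (left) and Mef2d (right) in MB and MT, by distance of the unit's middle from the start of the gene in kb (x axis, the whole gene); bars are 95% Cufflinks intervals. All 13 units in Mef2a are higher in MT, while the MT interval lies above the MB interval for 3 of the 9 units in Mef2d.

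To ask whether hnRNPL depletion touched the family, the polyA libraries were compared in the same way. Hnrnpl, the target of the siRNA, had 95.1 FPKM with si-NC and 85.9 with si-hnRNPL, a log2 change of -0.14 (-0.20 to -0.09) and a ratio of 0.904. The mRNA of the target was thus little lower in the knockdown library, and protein was not measured in these tables. The paper examined the knockdown of hnRNPL protein by Western blot at DM 48 h, which is not part of the data used here. None of the 4 Mef2 members was called. The share called over 16499 named genes above 0 was 0.939% higher and 0.618% lower, so few genes of any kind reached the threshold. The shares were 1.3% and 0.874% of the genes that reached an FPKM of 1 in either library, and 0.987% and 0.751% of those that reached it in both.

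Of the members with a fold change, Mef2a differed most, at 59.7 FPKM (57.8 to 61.5) with si-NC and 52.4 (50.6 to 54.3) with si-hnRNPL. Its log2 change was -0.18 (-0.25 to -0.12), and 82.8% of the 11047 genes that reached an FPKM of 1 in both had a change above it. The intervals of the libraries did not overlap for Mef2a, though they say nothing about the spread between cultures. Mef2c had 2.63 FPKM (2.40 to 2.86) with si-NC and 2.85 (2.55 to 3.16) with si-hnRNPL, a log2 change of 0.09 (-0.06 to 0.23). Mef2d had 30.4 FPKM (29.3 to 31.5) and 30.6 (29.3 to 31.9), a log2 change of 0.01 (-0.07 to 0.08). For both of these members the intervals overlapped, and a 1.5-fold change lay outside the interval of the difference. Against the median of all genes, -0.01, the changes were -0.17 for Mef2a, 0.10 for Mef2c and 0.02 for Mef2d.

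Within the family, Mef2a held 64.3% (63.3 to 65.4) of the summed FPKM with si-NC and 61.0% (59.7 to 62.3) with si-hnRNPL. Mef2d held 32.8% (31.8 to 33.9) and 35.6% (34.4 to 36.8), and Mef2c 2.84% (2.59 to 3.09) and 3.32% (2.97 to 3.67). In the polyA libraries Mef2a was thus the leading member as in MT, with Mef2d in second place. Levels in MT and si-NC are set side by side without a comparison, because the libraries differ in RNA selection and in time (DM 72 h and DM 48 h). For Mef2d the tables also use different gene models, 26773 bp long in total RNA and 29720 bp in polyA RNA (87946294 to 87976013). The GENCODE gene of Mef2d, which lies within the longer model, overlaps 1700113A16Rik on the opposite strand.

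**Figure D4:**
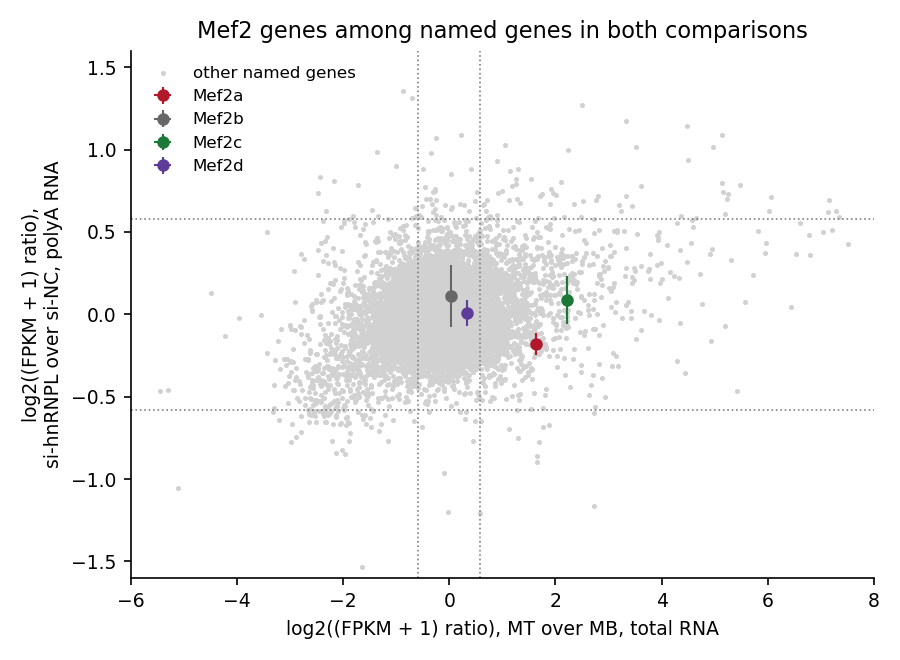
Log2((FPKM + 1) ratio) of named genes that reached an FPKM of 1 in either library of each pair, for MT over MB (x axis) and si-hnRNPL over si-NC (y axis); gray points are 10778 genes, of which 23 lie outside the axes, colored points are the Mef2 genes with 95% counting intervals, and dotted lines mark 0.58. Mef2a and Mef2c lie beyond the line on the x axis and all 4 members lie between the lines on the y axis.

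Genes that act with or upstream of MEF2, and genes known as its targets, were then described from lists drawn up from general knowledge. Over 68 genes in 7 groups, each counted once, 22 were called higher in MT, 10 lower and 36 neither, with a median log2 change of 0.14 against -0.0060 for all named genes above 0. Over all those genes 10.6% were called higher and 18.5% lower. Among the genes that reached an FPKM of 1 in either library, as 59 of the 68 did, the shares were 15.4% and 28.6%. Higher calls were thus more frequent in the lists than among genes at large, and lower calls were not. Of the higher calls, 15 were in the list of MEF2 targets. In si-hnRNPL over si-NC, 2 of the 68 were called higher and 0 lower, with a median of 0.02, against 0.939% and 0.618% of all named genes above 0. The lists are described by these counts and were not tested. With changes centered on the median of expressed genes, 28 were called higher and 8 lower in MT, as Cabin1 and Mapk7 lost their calls and Tcf12, Ncoa2, Vgll2, Hdac4, Rbfox1 and Rbfox2 were called higher.

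Among the bHLH partners, 3 of 7 were called higher in MT and 1 lower, a small list to set against the 10.6% and 18.5% of all named genes. Myog, the myogenin gene, went from 0.695 to 251 FPKM, and Myod1 from 36.6 to 65.9, while Myf5 stood at 13.8 and 13.6. E proteins, the dimerization partners of MyoD and myogenin, moved in both directions, since Tcf4 went from 10.0 to 26.7 FPKM and Tcf3 from 32.6 to 15.9. Srf, the related MADS-box factor, fell from 28.1 to 14.2 FPKM (log2 change -0.94), unlike the Mef2 members that were called.

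Of 9 coactivators, 2 were called higher and 2 lower, a small list to set against the shares over all named genes (10.6% and 18.5%). Kat2b, the acetyltransferase PCAF, rose from 12.2 to 23.4 FPKM, and Mamstr, a coactivator of MEF2 in muscle, from 0.0418 to 1.11. The arginine methyltransferase Carm1 fell from 31.3 to 15.1 FPKM and the chromatin remodeler Smarca4 from 39.5 to 21.3. The acetyltransferases Ep300 (8.73 and 8.55 FPKM in MB and MT) and Crebbp (7.17 and 6.70) stayed under the threshold.

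Class IIa deacetylases and the corepressors around them gave 1 call up and 2 down among 8 genes, near those shares. Hdac9, itself described as a MEF2 target, rose from 0.332 to 1.74 FPKM, whereas Hdac7 fell from 15.5 to 6.32. Hdac4 (6.35 and 8.85 FPKM) and Hdac5 (13.7 and 15.7) were not called, though Hdac4 was when changes were centered. Cabin1, a repressor of MEF2 and calcineurin, fell from 12.0 to 7.48 FPKM.

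Upstream, 3 of 21 kinase and calcineurin genes were called higher and 4 lower, with a median log2 change of -0.13. These counts are also close to the 10.6% and 18.5% of all named genes, so the genes that follow are described one by one. Mapk14 (p38 alpha) stood at 26.4 FPKM in MB and 13.7 in MT and was called lower. Its upstream kinases Map2k3 (84.1 and 30.2) and Map2k6 (3.58 and 1.33) were called lower as well, as was Mapk7 (ERK5) at a log2 change of -0.58. Among the genes called higher, Camk2a, a calcium/calmodulin-dependent kinase, went from 0.0683 to 6.17 FPKM and Ppp3ca, a catalytic subunit of calcineurin, from 12.9 to 30.02. Sik1, a kinase that phosphorylates class IIa deacetylases, went from 5.18 to 10.6 FPKM. Both genes of the Rbfox list, splicing factors that act on Mef2 transcripts, stayed under the threshold as computed and passed it when centered. Rbfox1 had 0.0031 FPKM in MB and 0.483 in MT (log2 change 0.56), and Rbfox2 had 41.6 and 56.0 (0.42).

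Genes known as MEF2 targets in muscle had a median log2 change of 2.52 in MT over MB, against -0.0060 for all named genes above 0. Of the 22, 15 were called higher, 0 lower and 7 neither, where 10.6% of all named genes above 0 were called higher and 18.5% lower. Among genes that reached an FPKM of 1 in either library, the shares were 15.4% and 28.6%. The largest rises after Myog were those of Mb, the myoglobin gene that the study itself follows, from 0.0896 to 93.8 FPKM, and of Ckm, muscle creatine kinase, from 0.00961 to 66.3. Myom2, an M-band protein, rose from 0.536 to 72.4 FPKM and Csrp3, a Z-disc LIM protein, from 0.0655 to 23.0. Srpk3, a muscle kinase described as a direct target of Mef2c, rose from 0.0669 to 8.55. Des, Myom1, Smyd1, Stac3, Xirp1, Hrc, Hspb7, Myl2 and Hdac9 were called higher as well. Klf6 had the lowest log2 change, -0.57 (57.9 FPKM in MB and 38.7 in MT), just short of a lower call. The immediate early genes Jun (35.4 and 34.2 FPKM) and Nr4a1 (2.57 and 2.63), targets of MEF2 in other settings, were not called, and Meg3 was listed at 0 in all 4 libraries. Ppargc1a (0.0514 and 0.322 FPKM), Slc2a4 (0.168 and 0.242) and Myocd (0.0462 and 0.0144) were not called either. These genes stayed under an FPKM of 1, where the added 1 understates changes. Hdac9 and Myog stand in more than 1 list, and all 7 myotube markers were also called higher in MT, and Ckm and Myog belong to both sets.

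In si-hnRNPL, Ckm (45.0 FPKM with si-NC and 74.3 with si-hnRNPL) and Csrp3 (10.5 and 20.97) were the genes of the 22 that were called, with log2 changes of 0.71 and 0.94. The median of the target list was 0.18, against -0.0027 for all named genes above 0. Of the 22, 15 had a log2 change above 0, against 8114 of those 16499 named genes, of which 0.939% were called higher. Another 6 targets lay below 0, the lowest being Hdac9 (-0.39), Klf6 (-0.27) and Jun (-0.18). Most myotube markers also lay above 0 (6 of 7), with 2 called and a median log2 change of 0.43. Their summed FPKM was 1989 with si-NC and 2875 with si-hnRNPL, of which the highest marker alone held 1009 and 1537. The part of these markers in the values of the target list was not tested. Mef2a, at -0.18, and Mef2c, at 0.09, were not called in this comparison.

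**Figure D5:**
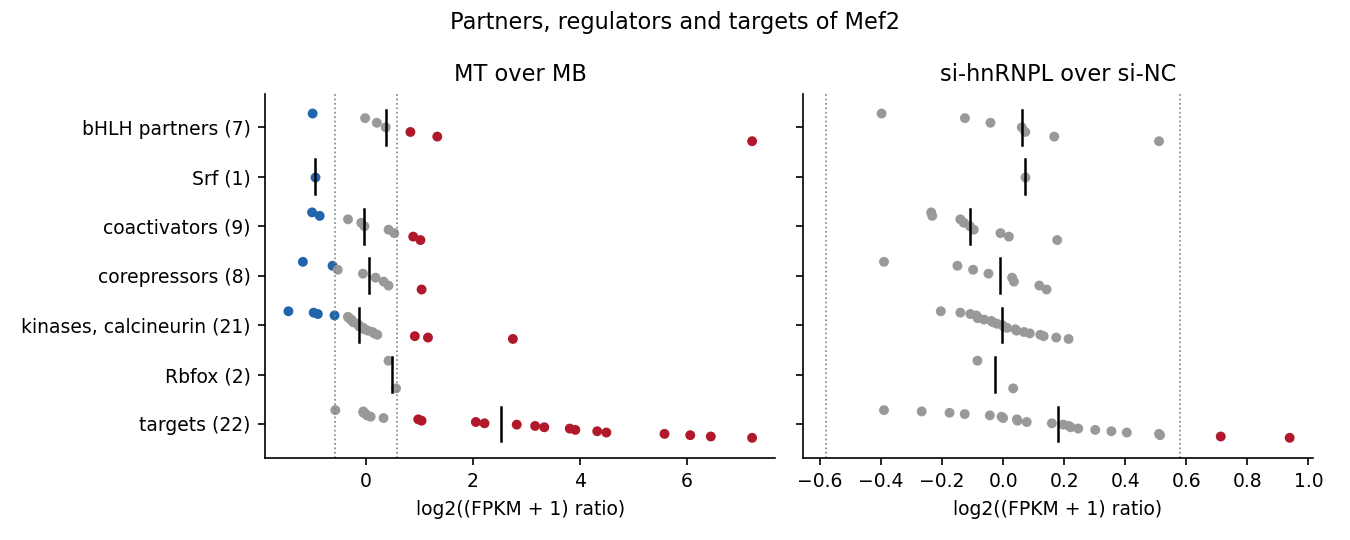
Log2((FPKM + 1) ratio) (x axes, different scales) of the genes in each list (rows, number of genes in parentheses) for MT over MB (left) and si-hnRNPL over si-NC (right); each point is a gene, red if called higher, blue if called lower and gray otherwise, black ticks are medians and dotted lines mark 0.58. On the left, 15 of the 22 targets are red, and on the right only Ckm and Csrp3 are.

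Markers of other tissues that express Mef2 genes were near 0. The 4 endothelial markers reached at most 0.360 FPKM in any library, the 4 neuronal markers 0.163, and the 3 adipocyte markers 0.251. Of the macrophage markers, Cd68 was the highest at 1.13 in MB, while Adgre1 was listed at 0 in all 4 libraries.

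Finally, the named genes whose pattern was most like that of a member were sought by the distance between log2 changes over both comparisons, among 9796 genes that reached an FPKM of 1 in all 4 libraries. Nearest to Mef2a were Adamts5 (distance 0.0244), Ntn4 (0.0262) and Dnal1 (0.0332), and 21 genes lay within 0.1 of it. Nearest to Mef2d were Gstz1 (0.0054), Afmid (0.0123) and Hoxc4 (0.0128), with 235 genes within 0.1. These numbers follow from where each member lies. In MT over MB, 1.92% of the 10735 genes at an FPKM of 1 in both libraries changed more than Mef2a, and 19.7% more than Mef2d. All the distances named are smaller than the half-widths of the members' own counting intervals, so the order of the neighbors is not resolved. Mef2b and Mef2c fell below an FPKM of 1 in at least 1 library and were not placed.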

How the data were processed

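Each library was deposited by the authors as a Cufflinks gene table with an FPKM and its 95% interval. Per the methods, reads were trimmed, required to keep at least 36 bp, and mapped to mm9 with TopHat (v2.0.13) before abundance was estimated with Cufflinks (v2.1.1). The total RNA libraries were strand specific, but whether strand was used in counting is not given in the sources used here. The deposited FPKM values were used unchanged. Implied fragments were computed as (2 x FPKM / (upper bound - FPKM)) squared, and intervals of log2 changes and shares from the upper half-widths in quadrature. Locus starts count from 0 in the tables and were raised by 1. Symbols that were not listed were looked up among RefSeq synonyms. Exons were taken from GENCODE for mm9, and RefSeq promoter windows (GRCm38.p6) were matched exactly to mm9. The genes named are the members, Hnrnpl, the list genes called in either comparison and those of largest and smallest change in MT over MB. Also named are the 3 nearest genes of each member with an FPKM of 1 or more throughout. Nearness was the Euclidean distance over both log2 changes, leaving out symbols that start with Gm, Mir or Sno or end in Rik. A few list genes that were not called, and markers, were named after their values were seen. The members and lists were chosen with earlier results of these data known. Calculations used Python 3.11.15, numpy 2.4.6, pandas 2.3.3 and matplotlib 3.10.9 and were tested on simulated data. A marker gene of the lists is not reported here.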

Additional observations from a re-analysis of the deposited data

How the results depend on the processing

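No paired analysis was possible because each group has 1 library. Pseudocounts of 0.1 and 0.01, scaling to the upper quartile, centering on the median, a threshold of 1 on the log2 change, summing entries with the same symbol, a filter on FPKM, sums without Mef2b and units wholly inside the locus were tried. Of 86 alternative values, 71 stayed within the counting interval or within 1.5 times the count, and none turned the direction of a called value. Some of the 71 could not move. Each member is a single entry and every unit lies inside its locus, so summing entries and requiring units wholly inside changed nothing. Sums without Mef2b had little room to change. The log2 changes of Mef2a and Mef2c in MT over MB left their counting intervals with both pseudocounts, upper quartile scaling and centering. The log2 change of Mef2a in MT over MB was 1.69 and 1.70 with pseudocounts of 0.1 and 0.01, 1.95 with upper quartile scaling and 1.85 when centered. For Mef2c these values were 4.57, 5.59, 2.38 and 2.45, as a low FPKM in MB gives the pseudocount its weight. Mef2d reached 0.65 with upper quartile scaling and 0.56 when centered. With an FPKM of at least 1 required in both libraries, 1 member was called higher in MT, since Mef2c is then left out. With a pseudocount of 0.01, 3 members were called higher in MT, Mef2b being added, and with upper quartile scaling 3, Mef2d being added. In si-hnRNPL over si-NC, 1 member was called higher with a pseudocount of 0.1 and 1 with 0.01, which was Mef2b, listed at 0 in si-NC. At the Mef2d locus, 4 units were called higher and 2 lower with a pseudocount of 0.1. Shallow coverage limits Mef2b, whose few fragments set no direction, and the spread between cultures is unknown.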
